A study of Danio rerio with 32 samples.

Results

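The sites described here are positions where an adenosine of zebrafish RNA was listed as read as guanosine at a single pre-gastrula stage only. They were chosen from 3 lists of mismatches between parental DNA and offspring RNA, made at the 16-cell stage, at 3.5 hours post fertilization (hpf) and at 5.3 hpf. A member is an A>G mismatch, or its form on the opposite strand, T>C, whose chromosome, position and change are in the 16-cell list alone or in the 3.5 hpf list alone. There were 4221 such sites at the 16-cell stage and 3817 at 3.5 hpf, 8038 of the 30154 A>G or T>C sites of any stage. Of all 44007 sites with any change, 13.9% were listed at the 16-cell stage only and 12.9% at 3.5 hpf only. The members made up 14.0% and 12.7% of the A>G or T>C sites, and the sites with other changes listed at one of these stages alone made up 13.7% and 13.5% of the 13853 sites with other changes. Within the 16-cell list, the one-stage share was 21.7% for A>G or T>C sites and 32.7% for other changes. Within the 3.5 hpf list it was 20.0% and 31.9%. Since the lists themselves choose the members, these counts are a description of the lists and no result about editing.

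The RNA came from pooled whole embryos of the wild-type strain that the sample labels call ABTL and the general methods call AB, all from 1 mating pair whose fin DNA served as the reference. Each stage had 1 library, so no spread between replicates exists and no difference between stages was tested. Intervals are exact Clopper-Pearson 95% intervals and cover counting error only. They are too narrow for sites that lie on the same reads. The lists give no coverage, so the depth behind each site is unknown beyond the minimum that the authors required. A listed frequency can therefore rest on few reads. A site missing from a list may have been unedited, edited below the lowest listed frequency of 20%, or covered by too few reads, and these cannot be told apart.

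Adenosine deaminases acting on RNA, the Adar enzymes, bind double-stranded RNA and convert adenosine to inosine, which is read as guanosine. Long paired regions, often formed by inverted repeats in 3' untranslated regions (3'-UTRs), are typically edited at many neighbouring adenosines, each in a part of the molecules. The 16-cell embryo relies on maternal RNA. By 3.5 hpf transcription of the zygotic genome has begun, and 5.3 hpf lies close to the onset of gastrulation.

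Most members had the changed base in a minority of the reads. The editing frequency, the share of RNA reads with the changed base, had a median of 27.3% in the 16-cell-only sites, with quartiles of 22.0% and 39.1%. In the 3.5-hpf-only sites the median was 25.7%, with quartiles of 21.6% and 34.0%. The remaining A>G or T>C sites of the 16-cell list had a median of 41.2% and those of the 3.5 hpf list 41.7%. Among these, sites shared with the 5.3 hpf list alone had medians of 27.3% and 26.7%. The A>G or T>C sites listed at 5.3 hpf only had a median of 29.4%. Sites with other changes had medians of 25% where listed at the 16-cell stage only and 23.5% at 3.5 hpf only. Low frequencies were therefore not particular to the members. Being listed depends on frequency, and members were selected by it, so these values are a description and no test was made. At the lower edge of the lists, 533 of the 16-cell-only and 549 of the 3.5-hpf-only sites had a frequency of exactly 20%. Values just below that edge are not listed.

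A smaller part of the members had the changed base in at least 50% of the reads. Frequencies of at least 50% were listed for 760 of the 16-cell-only sites, or 18.0% (interval 16.9% to 19.2%), and for 472 of the 3.5-hpf-only sites, or 12.4% (interval 11.3% to 13.5%). The same share was 39.2% and 39.7% in the other sites of the lists. A frequency of 100% was listed for 120 of the 16-cell-only and 86 of the 3.5-hpf-only sites, or 2.84% and 2.25%. In the other sites of the lists this share was 3.61% and 3.58%. Of the members at 100%, 33.3% (interval 24.99% to 42.5%) and 43.0% (interval 32.4% to 54.2%) had a mismatch of another kind within 10 bp in the same list. Among members below 100% this share was 7.63% at the 16-cell stage and 7.37% at 3.5 hpf. At any frequency, it was 8.36% and 8.17% over all members, and 5.67% and 5.62% among the other A>G or T>C sites of the lists. The other sites at 100% were not counted separately, so a high share at 100% is not shown to be particular to members. The part of such neighbouring mismatches in the fully changed sites was not tested.

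**Figure D1:**
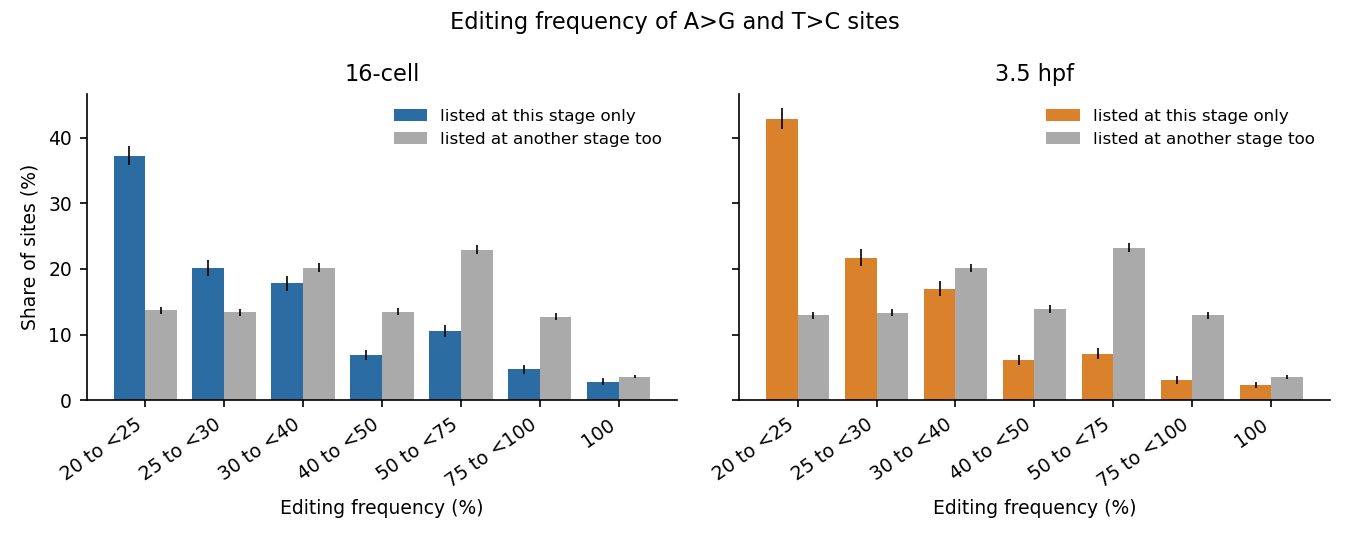
Share of sites (y axis, percent) in 7 bands of editing frequency (x axis, percent) for the 16-cell list (left) and the 3.5 hpf list (right). Coloured bars are sites listed at that stage only, grey bars are sites listed at another stage too, and error bars are exact 95% intervals. The lowest band holds 37.2% of the 16-cell-only and 42.9% of the 3.5-hpf-only sites.

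Sites listed at both pre-gastrula stages show how far a frequency moved between the libraries while it stayed within the listed range. Over 14199 such sites the median absolute difference was 6.04 percentage points, and the standard deviation of the difference was 11.01 points. Of the 14199 sites, 126 were lower by 30 points or more at 3.5 hpf and 151 were higher by as much. These differences hold both counting error and any change between the stages, which cannot be told apart. A site below the lowest listed frequency in either library was not counted, so these values can understate how far frequencies moved.

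Most members had a site of the same change from another stage's list nearby. Of the 16-cell-only sites, 70.2% (interval 68.8% to 71.6%) had a site of the same change within 100 bp that was listed at another stage. For the 3.5-hpf-only sites this share was 76.1% (interval 74.7% to 77.4%). For the A>G or T>C sites listed at 5.3 hpf only it was 28.6%. Sites with other changes listed at one stage alone, which serve as the mismatch background, had such a neighbour in 6.96% of cases at the 16-cell stage and 6.58% at 3.5 hpf. Each of the 10 other changes was matched on its own, and these sites are also fewer.

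Some of the one-stage sites of each stage lay near one-stage sites of the other. A 3.5-hpf-only site lay within 100 bp of 41.1% of the 16-cell-only sites, and a 16-cell-only site within 100 bp of 42.9% of the 3.5-hpf-only sites. Sites listed at both pre-gastrula stages alone were neighbours of 49.4% and 50.5% of the members, and sites listed at every stage of 35.1% and 41.8%. Sites listed at 5.3 hpf only were neighbours of 17.4% of the 16-cell-only and 22.7% of the 3.5-hpf-only sites. An A>G or T>C site of the opposite change, which would lie on the other strand, was within 100 bp of 6.97% and 6.44% of the members.

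The rest of the members formed stretches of their own or stood alone. At the 16-cell stage 728 members, 17.2%, had only other 16-cell-only sites within 100 bp, and 528, 12.5%, had no A>G or T>C neighbour of the same change. At 3.5 hpf these were 422 members, 11.1%, and 491 members, 12.9%. Of the one-stage sites with other changes, 10.3% at the 16-cell stage and 11.5% at 3.5 hpf lay in such stretches. At 3.5 hpf the share of the members was thus not above that of the other changes. Of the A>G or T>C sites listed at 5.3 hpf only, 43.4% lay in such stretches. Members in stretches of their own had a median frequency of 36.4% at the 16-cell stage (quartiles 25% and 58.5%) and of 30.3% at 3.5 hpf (quartiles 23.1% and 45.5%). The members near a site of another stage had medians of 26.4% and 25%. Sites with other changes in stretches of their own stage alone had medians of 36.4% at the 16-cell stage and 27.3% at 3.5 hpf. For A>G or T>C sites listed at 5.3 hpf only, in stretches of their own, the median was 35.3%. Higher frequencies in such stretches were therefore not particular to the members.

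**Figure D2:**
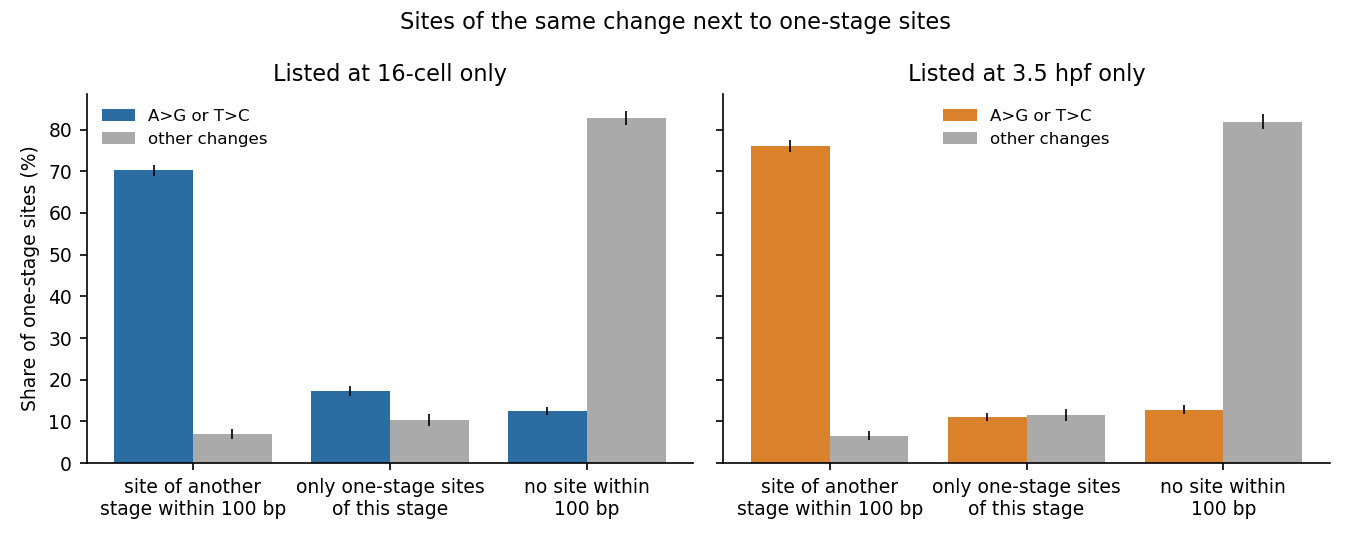
Share of one-stage sites (y axis, percent) by the nearest sites of the same change within 100 bp, for sites listed at the 16-cell stage only (left) and at 3.5 hpf only (right). Coloured bars are A>G or T>C sites, grey bars are sites with other changes, and error bars are exact 95% intervals. The members are mostly beside sites of another stage, while 82.8% and 81.9% of the sites with other changes stand alone.

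Members themselves gathered in clusters, here runs of one-stage sites of one stage and one change with gaps of at most 100 bp. At the 16-cell stage 158 clusters of at least 5 members held 1107 sites, or 26.2% of the members. At 3.5 hpf 113 such clusters held 736 sites, or 19.3%. The largest of either stage lay on the same stretch of chromosome 21 without overlapping. The 16-cell cluster had 24 T>C sites at chr21:44044415-44044868 (GRCz10), with frequencies from 20.0% to 71.4% and a median of 33.2%. Between its ends the 16-cell list had 39 sites, and the lists of 3.5 hpf and 5.3 hpf had 17 each. The 3.5 hpf cluster followed at chr21:44044886-44045345, with 21 T>C sites between 20.0% and 50.0% and a median of 25%. Between its ends the 3.5 hpf list had 48 sites, the 16-cell list 34 and the 5.3 hpf list 25. No listed 3'-UTR window on their strand covers either cluster.

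Other clusters had few or no sites at the other stages. At the 16-cell stage 112 clusters of at least 3 members, with 492 sites, had no site of the same change of another stage within 100 bp. At 3.5 hpf there were 56, with 242 sites. Clusters of sites with other changes were not counted, so these numbers have no background. Beside the cluster in ahi1 described below, the 16-cell clusters with the most sites were 11 T>C sites at chr7:41645474-41645639, with a median frequency of 40%, and 10 T>C sites in 73 bp at chr12:45137332-45137404, with a median of 53.9%. At 3.5 hpf the first was a run of 10 A>G sites in 69 bp, at chr15:43796387-43796455, in the window of tyr, which encodes tyrosinase, the first enzyme of melanin synthesis. Their frequencies ran from 20.0% to 100%, with a median of 50.0%. The window had no site at the 16-cell stage, and at 5.3 hpf 1 site at 22.2%, listed elsewhere in the window.

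To place members in genes, 765 windows of 5000 bp at annotated 3'-UTRs were used, 1 for each gene. The authors listed these windows because they held at least 2 sites at some stage, so they are not a sample of all genes. A site was counted on the gene's strand, as A>G for genes on the plus strand and T>C for genes on the minus strand. Of the 16-cell-only sites 1573, or 37.3% (interval 35.8% to 38.7%), were in such windows, and of the 3.5-hpf-only sites 1487, or 39.0% (interval 37.4% to 40.5%). For the other sites of the lists the shares were 46.0% and 45.6%. At the 16-cell stage 450 windows held a member and at 3.5 hpf 449, and 316 windows held members of both stages. More 16-cell-only than 3.5-hpf-only sites were counted in 263 windows, and the reverse in 262.

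The window of pmepa1, whose product is an inhibitor of TGF-beta signalling in mammals, held the most members at both stages. It lies on the minus strand at chr6:60076534-60081533. It had 42 sites at the 16-cell stage, 35 at 3.5 hpf and 2 at 5.3 hpf. Of these, 35 were 16-cell-only and 29 were 3.5-hpf-only, and 5 were shared by those stages alone. The 16-cell-only sites ran from 20.0% to 100% and the 3.5-hpf-only sites from 20.0% to 61.5%, with a median of 25% at each stage. With many of these sites at or near the lower edge of the lists, the lists do not show whether the edited positions themselves differed between the stages.

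Several windows held more 16-cell-only sites. The window of tasp1, the gene of the protease taspase 1, at chr13:34619748-34624747, had 23 of them with a median of 46.2%, against 7 3.5-hpf-only sites with a median of 27.3%. It had 30 sites in all at the 16-cell stage, 13 at 3.5 hpf and 2 at 5.3 hpf. The window of fdft1, which encodes squalene synthase of the sterol pathway, had 30 16-cell-only sites (median 41.4%) and 12 3.5-hpf-only sites (median 40.8%). Further, b3galt6, a galactosyltransferase that builds the linker of glycosaminoglycans, had 24 and 14. The gene slc25a42, a mitochondrial carrier of coenzyme A, had 20 and 8, and 1 of the 8 lay within 10 bp of a mismatch of another kind. The calcium channel gene orai2 had 18 and 8.

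Windows with more 3.5-hpf-only sites were led by ppp2r5cb, a regulatory subunit of protein phosphatase 2A, at chr20:54109486-54114485 on the minus strand. It held 24 3.5-hpf-only sites with a median of 29.3%, against 3 16-cell-only sites with a median of 23.8%. It had 52 sites at the 16-cell stage, 71 at 3.5 hpf and 32 at 5.3 hpf, and 22 sites were listed at every stage. The gene aass, of lysine breakdown, had 15 3.5-hpf-only sites and 5 16-cell-only sites. In the windows of the ubiquitin ligase gene rnf139 (18 at the 16-cell stage and 19 at 3.5 hpf), of ppp2r2d (21 and 17), another regulatory subunit of protein phosphatase 2A, of ubald1b (19 and 15), of zgc:172291 (21 and 15) and of si:ch211-57i17.1 (19 and 17), the numbers were close. The window of tatdn1, with 12 and 17, overlaps that of rnf139 and shares sites with it.

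**Figure D3:**
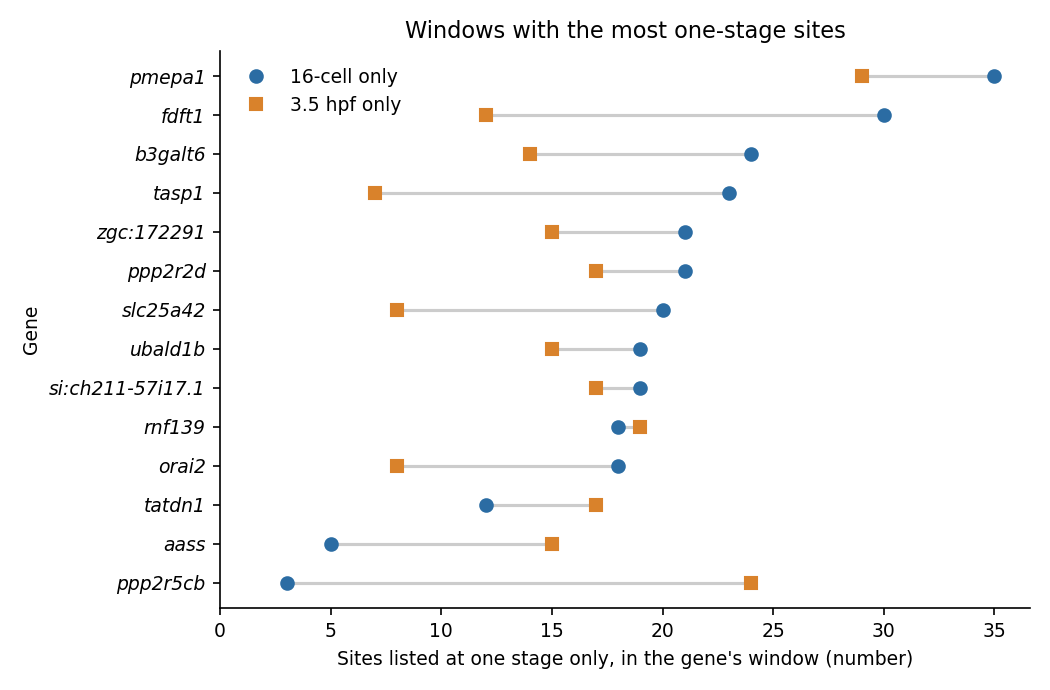
Number of one-stage sites on the gene's strand (x axis) in the windows with the most of them at either stage (y axis, gene names). Circles are 16-cell-only sites, squares are 3.5-hpf-only sites, and a line joins the counts of 1 window. The counts of ppp2r5cb (3 and 24) and tasp1 (23 and 7) lie far apart, and those of rnf139 (18 and 19) close together.

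Some windows had sites at one stage and at no other. With at least 2 sites required, there were 26 windows with sites at the 16-cell stage only, or 3.40% of the 765 (interval 2.23% to 4.94%), with 94 sites, and 13 at 3.5 hpf only, or 1.70% (interval 0.908% to 2.89%), with 42 sites. At 5.3 hpf there were 62. The sites in these windows had a median frequency of 40% at the 16-cell stage and 27.3% at 3.5 hpf. Since each transcript of a window may be absent or too thinly covered at the other stages, a window listed at one stage does not show that editing was limited to it.

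Among the windows with sites at the 16-cell stage only, the one with the most sites was that of gtf3c2, a subunit of the RNA polymerase III factor TFIIIC, at chr20:38680818-38685817. It had 15 sites at the 16-cell stage, from 20.0% to 83.3% with a median of 46.2%. They formed 2 groups, 8 sites from 2044 to 2077 bp and 7 sites from 2420 to 2447 bp into the window. The window of ahi1, whose product acts at the base of the cilium, had 11 sites on the minus strand of chromosome 17, from 20.0% to 75.0% with a median of 42.9%. In dnajc27, a gene of a J-domain protein, 4 sites lay within 2785 to 2797 bp of the window, at 100%, 90%, 40% and 72.7%. The further windows of this kind with at least 3 sites that are named here were fam60a and si:dkey-177p2.6 with 5 each, desi1a and f2rl1.1 with 4 each, and LOC797125, batf and mafgb with 3 each. None of the members in these 10 windows had a mismatch of another kind within 10 bp.

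At 3.5 hpf the window of abcc4, an organic anion transporter gene, had 7 sites, all between 20.0% and 27.8%. The window of spi1a, a gene of the PU.1 family of blood cell transcription factors, had 6 sites from 20.0% to 90%, and all 6 lay within 10 bp of a mismatch of another kind. The same held for all 4 sites of cplx4b, a complexin gene, of which 3 were at 100%. No such neighbour was listed for the 5 sites of naa15b, a subunit of an N-terminal acetyltransferase (median 36.4%), the 3 sites of eral1 (median 36.4%) or the 3 sites of prkab2, a subunit of AMP-activated kinase (median 27.3%). The windows of gpr137bb, mfsd6l, slc44a5b and snx21 had 2 sites each, and 1 of the 2 sites of gpr137bb lay within 10 bp of a mismatch of another kind.

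Genes of Wnt signalling, which patterns the embryonic axes, had 26 16-cell-only and 16 3.5-hpf-only sites in their windows. Of 8 windows on the list, 5 held 16-cell-only sites and 3 held 3.5-hpf-only sites, 62.5% and 37.5%, beside 58.8% and 58.7% of all listed windows. The window of fzd7b had no site at either stage and so could hold no member. Among listed windows with a site, 450 of 676 held a member at the 16-cell stage and 449 of 666 at 3.5 hpf. The median number of members in a window was 1.5 and 0, against 1 and 1 over all windows. Members made up 29.5% and 20% of the sites in the Wnt windows, against 18.3% and 17.5% over all listed windows. The receptor gene fzd3b had 11 sites at the 16-cell stage and 3 at 3.5 hpf. The 3 were also in the 16-cell list, at 68.4%, 33.3% and 70.0% there and at 75.0%, 20.0% and 80.0% at 3.5 hpf. The 8 16-cell-only sites of fzd3b ran from 21.4% to 76.5%, with 2 of them at 75.0% or above. The receptor gene fzd5 had 2 16-cell-only sites, at 27.5% and 28.8%. For daam1b, a formin of the planar cell polarity branch, 4 16-cell-only sites were at 80.0%, 20.0%, 38.5% and 36.4%. The repressor gene tcf7l1b had 11 16-cell-only and 12 3.5-hpf-only sites, with medians of 25.6% and 26.3%. For rnf146, a ligase that marks axin for breakdown, there were 1 and 3, and dvl2, a transducer of the Wnt signal, had 1 3.5-hpf-only site at 22.2%.

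Of 12 windows of FGF and receptor tyrosine kinase signalling, 10 held 16-cell-only sites and 8 held 3.5-hpf-only sites, 83.3% and 66.7%. Of all listed windows 58.8% and 58.7% held such sites. That base includes windows without any site at the stage, whereas all 12 windows here had sites at both stages. Among listed windows with a site, 450 of 676 held a member at the 16-cell stage and 449 of 666 at 3.5 hpf. The median was 1.5 members at each stage, against 1 and 1 over all windows. Members made up 18.0% and 17.0% of the sites in the FGF windows, close to the 18.3% and 17.5% over all listed windows. The members of the receptor genes were near the lower edge. In fgfr1a there were 7 and 8 members with medians of 20.6% and 21.3%, among 67 sites at the 16-cell stage and 66 at 3.5 hpf, and 46 of the sites were listed at every stage. In igf1rb 5 and 9 members had medians of 22.6% and 22.2%. The window of sos1, an exchange factor that activates Ras, differed. Its 16-cell-only sites were at 100%, 40%, 100%, 20.0%, 100%, 100% and 40% within 737 to 756 bp of the window, and 54.5% at 1693 bp. At 3.5 hpf it had 1 site, at 20.0% and 717 bp, and at 5.3 hpf 4 sites between 2092 and 2107 bp. No position of sos1 was listed at more than 1 stage, and none of its members had a mismatch of another kind within 10 bp. The heparan sulfate genes extl3 and hs6st1a had 1 and 2 members at the 16-cell stage and 2 each at 3.5 hpf, and ext1b had 2 at 3.5 hpf. The phosphatase gene dusp4 had 1 and 2. The adaptor gene grb10a had 2 and ptpn11a and insrb 1 each, all 16-cell-only, and the kinase gene src had 2 and 1. The 1 member of ptpn11a lay within 10 bp of a mismatch of another kind.

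Of 10 windows of dorsoventral and mesendoderm genes, 3 held 16-cell-only sites and 5 held 3.5-hpf-only sites, 30% and 50.0%. The windows of tgfbr1b, sebox, snai1b and pnx had no site at either stage, and that of vent none at the 16-cell stage. These windows could hold no member there. Over all 765 windows, 58.8% and 58.7% held a member. Of the 765, 676 had a site at the 16-cell stage and 666 at 3.5 hpf, and of these 450 and 449 held a member. The 30% and 50.0% count windows that could hold no member, so they do not show fewer members in this group. Shares among its windows with a site were not computed. The median numbers of members were 0 and 0.5, against 1 and 1 over all windows. The 46 and 47 members of the group were mostly those of pmepa1. They made up 43.4% and 46.5% of the sites in its windows, against 18.3% and 17.5% over all listed windows. In the pmepa1 window alone, members were 35 of 42 sites at the 16-cell stage and 29 of 35 at 3.5 hpf. The window of twsg1a, a secreted modulator of bone morphogenetic proteins, had 8 16-cell-only and 13 3.5-hpf-only sites, with medians of 24.6% and 25%. These were among 52 sites at the 16-cell stage and 54 at 3.5 hpf. The protease gene furina had 3 and 2, and ezrb had 1 3.5-hpf-only site at 34.1%. The window of vent, a homeobox repressor gene, was listed at 3.5 hpf alone, with 2 sites at 23.1% and 20.0%. That window also held 17 mismatches of other kinds at 3.5 hpf, and 1 of its 2 sites had such a mismatch within 10 bp.

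**Figure D4:**
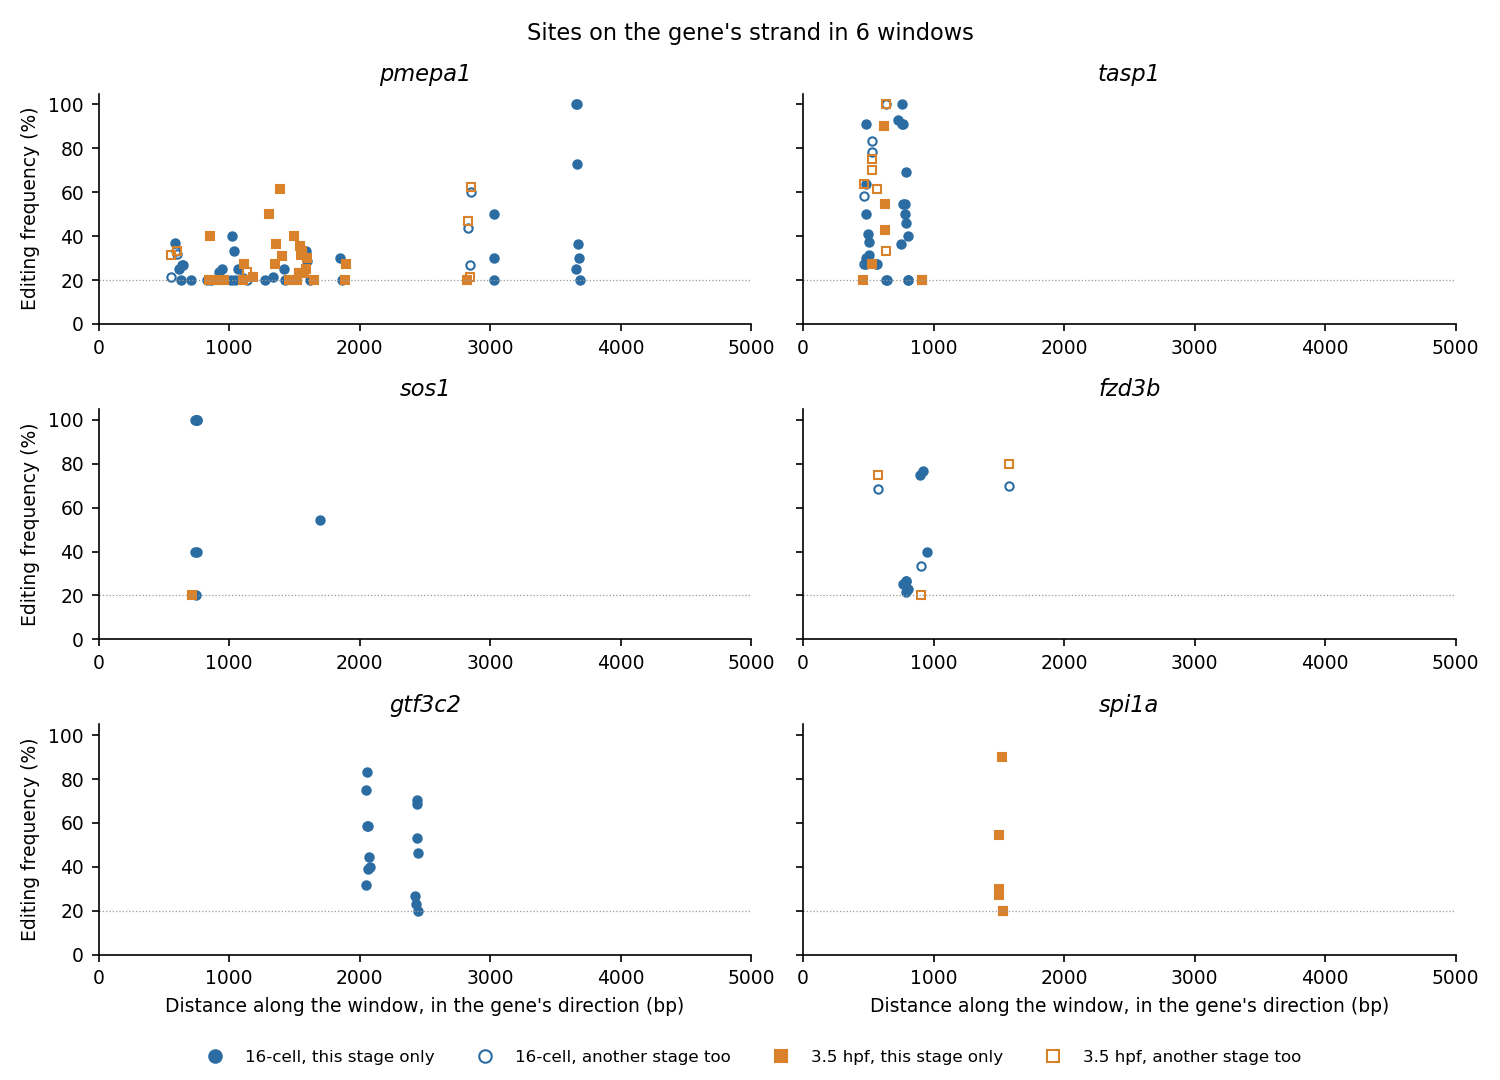
Editing frequency (y axis, percent) against distance along the window in the gene's direction (x axis, bp) for A>G sites on the gene's strand in 6 windows. Circles are the 16-cell list and squares the 3.5 hpf list, filled where the site was listed at that stage only and open where another stage listed it too. The dotted line is the lowest listed frequency, 20%. One-stage sites of both stages are interleaved over part of the pmepa1 window, gtf3c2 has 15 sites of the 16-cell list alone, and spi1a has 6 of the 3.5 hpf list alone.

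The other fixed gene groups held members at shares on either side of those of all windows. Members of the 16-cell stage were in 26 of 41 membrane trafficking windows (63.4%), 24 of 31 ubiquitin windows (77.4%), 14 of 25 windows of RNA processing and turnover (56.0%), 8 of 16 cell division windows (50.0%) and 12 of 18 solute carrier windows (66.7%). Members of 3.5 hpf were in 26 (63.4%), 19 (61.3%), 13 (52.0%), 9 (56.3%) and 13 (72.2%) of the same windows. These shares count all windows of a group, with or without a site at the stage. The groups are small and were not tested against other windows.

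By chromosome, the one-stage share of a list ran from 16.1% (interval 13.6% to 18.8%) on chromosome 1 to 26.8% (interval 22.7% to 31.3%) on chromosome 4 at the 16-cell stage. At 3.5 hpf it ran from 16.2% (interval 13.7% to 19.1%) on chromosome 14 to 30.6% (interval 26.5% to 35.02%) on chromosome 4, and on unplaced scaffolds it was 31.2% (interval 26.1% to 36.5%). Chromosome 4 held 115 16-cell-only and 144 3.5-hpf-only sites. The largest 3.5 hpf cluster there, 14 A>G sites at chr4:72729934-72730034 in the window of trim24, had a median of 38.8%, and without it the share of chromosome 4 was 28.5%. At the 16-cell stage the largest cluster of chromosome 4 had 8 members, and without it the share was 25.4%. With all their sites, chromosomes 20 and 17 had shares of 26.6% and 25.9%. Neither was recomputed without its largest cluster, so the 25.4% cannot be ranked against them. On chromosome 20 the share was 26.6% at the 16-cell stage and 18.7% at 3.5 hpf, with intervals of 24.0% to 29.4% and 16.2% to 21.3%. Of its 284 16-cell-only sites, the fdft1 window held 30, the si:ch211-57i17.1 window 19, the gtf3c2 window 15 and a cluster at chr20:53348994-53349150 15. Of its 177 3.5-hpf-only sites, the ppp2r5cb window held 24, the si:ch211-57i17.1 window 17 and the fdft1 window 12. The shares of chromosome 20 without these sites were not computed. With 1 library for each stage, these shares describe the lists.

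**Figure D5:**
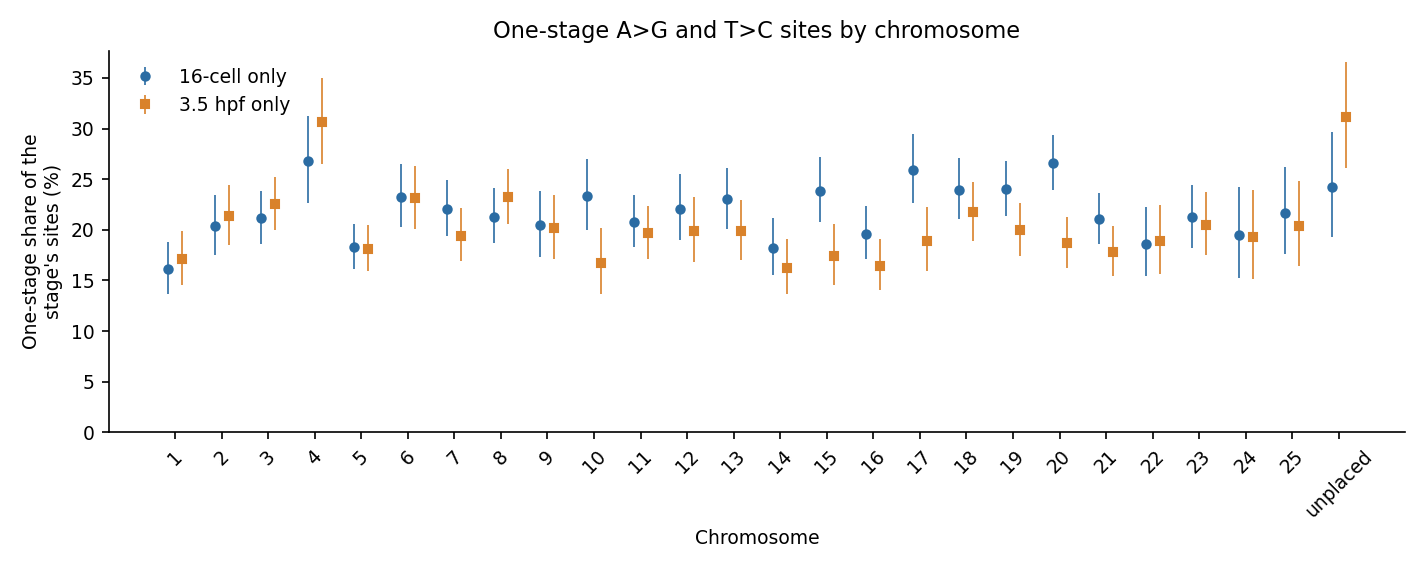
One-stage share of the A>G or T>C sites of a list (y axis, percent) on each chromosome and on unplaced scaffolds (x axis). Circles are the 16-cell list, squares the 3.5 hpf list, and bars are exact 95% intervals. With all sites counted, chromosome 4 has a share of 26.8% at the 16-cell stage, close to the 26.6% of chromosome 20, and of 30.6% at 3.5 hpf.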

How the data were processed

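Per the labels and the study's methods, the authors aligned reads to GRCz10 with STAR 2.7.7a and SAMtools 1.11, called mismatches with REDiscover at positions homozygous in both parents, removed sites with several alternative bases, and required minimum quality, coverage and frequency. The deposited lists give position, change and the fraction of reads with the changed base, printed here as percent, without coverage or strand. The deposited expression tables were not used here.

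Sites were matched by chromosome, position and change with Python 3.11.15, numpy 2.4.6, pandas 2.3.3, scipy 1.17.1 and matplotlib 3.10.9. Depth is unknown, so only shares of sites carry intervals. With 1 library for each stage no test was run. Matching, distances, clusters and intervals were tested on simulated data. The genes named were, at each stage, those of the 10 windows with the most members, of up to 10 windows with sites at that stage alone, and of the Wnt, FGF and dorsoventral lists with a member, beside the genes at the largest clusters. Members and lists were chosen with earlier results of these data known. Alternatives were other frequency limits, distances, strands, site counts and a filter on neighbouring sites. The sequence around members was not analysed here.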

Additional observations from a re-analysis of the deposited data

How the results depend on the processing

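No paired analysis was possible because each stage had 1 library, and no library could be left out. At a frequency of at least 30% in their own list the members numbered 1800 at the 16-cell stage and 1353 at 3.5 hpf, and with that limit in all lists 2803 and 2526. The share near a site of another stage was 63.2% and 69.6% at 50 bp, 79.6% and 83.7% at 500 bp, and 62.9% and 71.2% for members of at least 30%. Without members at 100% or within 10 bp of a mismatch of another kind, chosen after seeing the data, it was 74.5% and 80.5%. The 16-cell median frequency was then 26.7%. That median was 26.4% near a site of another stage, and 25% with no A>G or T>C site of any stage within 100 bp, where the 3.5 hpf median was 24.0%. The share in windows was 39.0% and 41.0% on either strand and 33.9% and 34.7% for members of at least 30%. With at least 5 sites, 4 windows at the 16-cell stage and 3 at 3.5 hpf had sites at one stage only. The remaining alternatives moved site or window counts by less than 1.5 times and other values within their intervals. One of them, at least 1 site for windows of one stage, could hardly change the count. The windows had been listed for at least 2 sites. Unknown coverage limits every comparison of presence.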
